A study of Drosophila melanogaster with 2 samples.

Results

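Many fly genes lie head to head, so that 1 short stretch of DNA holds the promoters of a gene read leftwards on the minus strand and a gene read rightwards on the plus strand. The peaks described here are those of the zinc finger protein CG10147 at such divergent protein-coding promoters. A peak was a member when its summit lay within 500 bp of transcription start sites (TSSs) of at least 2 protein-coding genes on opposite strands, with the minus-strand TSS at or to the left of the plus-strand TSS and at most 500 bp from it. The rule used the annotation and the position of the summit, and no signal value. It took 710 of the 4576 peaks in the authors' list of peaks reproducible between replicates (the IDR list, for irreproducible discovery rate), which is 15.5% (95% exact Clopper-Pearson interval 14.5 to 16.6%). Of the other peaks, 1596 had a summit within 500 bp of a protein-coding TSS without such a pair, and 2270 had none that near. All intervals here cover counting error over peaks or pairs only, and neighbouring peaks are not independent samples.

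The study measured by ChIP-seq where CG10147 sits on the genome of whole Drosophila melanogaster embryos of mixed sex, aged 0 to 24 h. The flies stably carried a transgene for CG10147 with GFP fused at its C terminus, the chromatin was sonicated to 200 to 800 bp, and an antibody to GFP pulled down the bound DNA. There was 1 group with 2 libraries, labelled biological replicates 2 and 3, and both come from this same transgenic line. Control libraries were not analysed here, so no comparison with untagged embryos or with input DNA was made. A whole embryo of this age range pools many cell types and stages, and a peak list does not tell in which of them a site was bound. The 3 lists of each replicate and of the pooled reads held 30000 peaks each, ranked by a signal value in the peak caller's own units. The depth of each library is unknown from these files.

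Divergent promoters are common in the compact fly genome, and many of their genes are housekeeping genes, which most cells use at most times. The DNA between the TSSs is usually a single nucleosome-depleted region that serves both genes. CG10147 is predicted to belong to the family of zinc-finger associated domain (ZAD) proteins with C2H2 zinc fingers, a large insect family whose best known members bind DNA at insulators and promoters. Proteins known from Drosophila to act at housekeeping promoters include Dref, which binds the DNA replication-related element (DRE) with the core TATCGATA, BEAF-32, which binds CGATA clusters, and M1BP, which binds motif 1 with the core GGTCACAC.

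The DNA between the 2 TSSs is shown here for 6 strong members, to let the summit positions, the A and T runs and the motifs be seen in one place. They were chosen after their values were seen: 5 have the summit between the TSSs and the last has it outside. The letters are the plus strand, 5′ to 3′, of the RefSeq copy of the dm6 assembly (Release 6), from the base after the minus-strand TSS to the base before the plus-strand TSS. Capitals mark every match, on either strand, to the DRE core TATCGATA, the BEAF-32 core CGATA, the motif 1 core GGTCACAC, or 1 of the AT-rich words AAAATAT, then TTTAAAA, and last TAAAATA. These words can overlap, since TATCGATA contains CGATA, and letters can be shared by the AT-rich words too. Art3/mRpS10 lies at chr3R:15229409-15229664, CG13390/CG17294 at chr2L:8376798-8377034, brm/Arl1 at chr3L:15982870-15983134, CG10147/Bulli at chr3L:6488425-6488680, Atat/Shc at chr3L:9426759-9427009 and Chro/Ssl1 at chr3L:22878985-22879088.
Art3/mRpS10: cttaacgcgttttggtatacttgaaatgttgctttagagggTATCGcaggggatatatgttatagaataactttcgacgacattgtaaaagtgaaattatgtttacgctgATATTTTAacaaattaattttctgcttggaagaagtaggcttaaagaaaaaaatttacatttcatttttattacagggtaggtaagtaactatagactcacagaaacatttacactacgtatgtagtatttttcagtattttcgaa
CG13390/CG17294: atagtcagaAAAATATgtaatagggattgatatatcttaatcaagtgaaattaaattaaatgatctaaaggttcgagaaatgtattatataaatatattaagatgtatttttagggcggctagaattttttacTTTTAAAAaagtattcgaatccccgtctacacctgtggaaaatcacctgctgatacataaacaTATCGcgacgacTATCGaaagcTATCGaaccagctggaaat
brm/Arl1: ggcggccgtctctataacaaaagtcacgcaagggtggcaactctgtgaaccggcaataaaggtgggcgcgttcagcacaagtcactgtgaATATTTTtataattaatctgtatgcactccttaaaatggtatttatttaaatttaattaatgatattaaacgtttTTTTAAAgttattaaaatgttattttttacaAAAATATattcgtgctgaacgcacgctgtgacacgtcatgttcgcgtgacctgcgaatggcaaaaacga
CG10147/Bulli: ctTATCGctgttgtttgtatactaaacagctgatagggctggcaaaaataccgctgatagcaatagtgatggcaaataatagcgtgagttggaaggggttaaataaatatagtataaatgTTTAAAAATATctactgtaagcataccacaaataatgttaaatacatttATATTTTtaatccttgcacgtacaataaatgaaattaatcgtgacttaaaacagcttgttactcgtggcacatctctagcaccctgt
Atat/Shc: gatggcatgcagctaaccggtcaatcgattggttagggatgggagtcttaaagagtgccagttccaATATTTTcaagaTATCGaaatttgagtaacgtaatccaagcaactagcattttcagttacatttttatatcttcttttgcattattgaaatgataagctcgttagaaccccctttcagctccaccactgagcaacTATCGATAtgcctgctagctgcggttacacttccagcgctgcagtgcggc
Chro/Ssl1: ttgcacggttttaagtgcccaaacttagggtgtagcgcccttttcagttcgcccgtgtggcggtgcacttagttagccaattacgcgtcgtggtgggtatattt

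In the Art3/mRpS10 stretch of 256 bp the summit is base 121, next to minus-strand matches to AAAATAT and TAAAATA that share letters, and 30.1% of the bases are G or C. The CG13390/CG17294 stretch has its summit at base 93 of 237, inside a run of A and T letters, while its 3 CGATA matches, read on the minus strand, lie near the plus-strand end. The brm/Arl1 stretch, of 265 bp, has AAAATAT matches on both sides of its summit. The stretch of CG10147's own promoter has its summit at base 182 of 256, and 33.2% of its bases are G or C. The Atat/Shc stretch holds the whole DRE core TATCGATA near its plus-strand end, and its summit is base 122 of 251. The Chro/Ssl1 stretch, of 104 bp, holds no match to any of the 6 words, and the summit lies 72 bp outside it on the Chro side. A match is a description of the letters and not a binding site.

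The strongest member was the peak of Art3, an arginine methyltransferase gene, and mRpS10, a gene of the mitochondrial ribosome's small subunit, which are 257 bp apart. The peak covered chr3R:15229351-15229752, with a signal of 2536 in the pooled reads, and it stood at 9 of 4576 in the IDR list. Its signal was 1125 in replicate 2, rank 24 of 30000, and 1438 in replicate 3, rank 11. The summit lay 121 bp from the Art3 TSS and 136 bp from the mRpS10 TSS, close to the middle. The next, at eIF4EHP, a cap-binding repressor of translation, and CG18428, had a pooled signal of 2227, with 843.3 in replicate 2 and 1470 in replicate 3. It ranked 37 and 10 in the replicates, and its summit lay 259 bp from the eIF4EHP TSS and 117 bp from that of CG18428.

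The third, at CG11309 and CG7632, differed from these in shape: only 39 bp part the TSSs, and the summit lay 90 bp outside them on the CG11309 side. Its pooled signal was 2114, with 983.3 at rank 30 in replicate 2 and 1256 at rank 23 in replicate 3. The summit at Fbw5, an F-box protein gene, and CG9147 lay 5 bp past the CG9147 TSS, with a pooled signal of 2007 and replicate signals of 925.4 and 1162. At Chro, which encodes the chromodomain protein Chromator, and Ssl1, a subunit of the transcription factor TFIIH, the pooled signal was 1809 and the replicate signals 768.4 and 1047. In all 3 the TSSs were at most 134 bp apart, and the replicates placed them among the first 44 peaks.

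CG10147's own promoter was among the members. CG10147 and Bulli, which encodes a subunit of the Mon1-Ccz1 complex that activates Rab7, start 257 bp apart, and the peak covered chr3L:6488399-6488762. The pooled signal was 1540, the 12th highest of the 710, with 639.4 at rank 64 in replicate 2 and 928.6 at rank 51 in replicate 3. The summit lay 182 bp from the CG10147 TSS and 75 bp from the Bulli TSS. The transgene carries CG10147, and how much of this region it holds is not given in the sources used here, so the number of copies behind this signal is not known.

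The 20 strongest members ran from 2536 down to 1256 in pooled signal, and all lay within the first 83 peaks of the IDR list. The lowest rank among them was 230 in replicate 2, at Elp6, an Elongator subunit gene, and Dic1, a mitochondrial dicarboxylate carrier gene, where replicate 3 gave rank 48. The lowest in replicate 3 was 118, at Atat, a tubulin acetyltransferase gene, and Shc, a signalling adaptor gene. The summit lay between the TSSs in 17 of the 20, at 75 to 158 bp from the nearer TSS, and 12 of these were 90 to 120 bp from it. Their genes include brm, the ATPase of the Brahma chromatin remodelling complex, with Arl1, an Arf-like GTPase (pooled 1583, replicates 734.4 and 865.4). CHMP2B, an ESCRT-III subunit gene, with Tcs5 had a pooled signal of 1806 and replicate signals of 783.7 and 1041. The pair mRpS23, another mitochondrial ribosome gene, and CenG1A, an Arf GTPase activator gene, gave 1657, 612.0 and 1055, across a gap of 492 bp. Across these 20 the replicates placed the same regions near the top of both lists. The 20 were chosen by a pooled signal made from both replicates, so their high ranks follow partly from that choice.

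How often divergent promoters carried a summit depended on how far apart the TSSs were. The annotation holds 1995 divergent pairs of protein-coding genes, of which 719 (36.0%, interval 33.9 to 38.2%) had a member peak. The 719 pairs are more than the 710 peaks because 34 members met the rule for more than 1 gene pair. The member at pre-mod(mdg4)-E and pre-mod(mdg4)-Y met it for 21 pairs. In the other direction, 46 pairs held 2 member peaks. By genes, 1370 of the 3815 in divergent pairs (35.9%) had a member peak. Counted instead by any IDR summit within 500 bp of a TSS, it was 1458 of the 3815 (38.2%). By that same count it was 2836 of all 13968 protein-coding genes (20.3%) and 1378 of the 10153 genes outside divergent pairs (13.6%). A gene in a pair has 2 chances to fall near a summit, its own and its partner's, so these shares are counts and not rates per promoter. By chromosome arm the share of pairs bound ran from 30.8% on X (89 of 289) to 39.8% on 3L (156 of 392) among the 5 large arms.

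Pairs with TSSs more than 200 and up to 400 bp apart had a summit more often than closer or wider pairs. Of 942 pairs in that range 434 were bound (46.1%, interval 42.9 to 49.3%), against 217 of 786 pairs up to 200 bp (27.6%, 24.5 to 30.9%) and 68 of 267 above 400 bp (25.5%, 20.4 to 31.1%). In finer steps the share was 27.5% at 0 to 50 bp, 30.2% above 50 and up to 100 bp, 28.5% above 100 and up to 150 bp, and 22.1% above 150 and up to 200 bp. It was 46.9% (254 of 542) above 200 and up to 300 bp and 45.0% (180 of 400) above 300 and up to 400 bp. The rule itself narrows with the gap, since the stretch in which a summit is within 500 bp of both TSSs is shorter for wide pairs.

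The range from 200 to 400 bp was also the highest in each replicate's own list. Among the 4576 strongest peaks of replicate 2, 28.5% of pairs up to 200 bp, 42.3% between 200 and 400 bp and 25.8% above 400 bp were bound. In replicate 3 the shares were 28.5%, 48.1% and 31.1%, so that the widest pairs stood above the closest there and below them in replicate 2. With all 30000 pooled peaks they were 54.2%, 64.8% and 55.4%, a smaller spread. Of the 1276 pairs without an IDR summit, 465 had a weaker pooled summit (36.4%) and 811 had none in the pooled list. Base composition moved with the gap too. In a 200 bp window at the middle of bound pairs, mean GC content was 39.7% up to 200 bp. It was 29.8% between 200 and 400 bp and 26.9% above 400 bp. Pairs without an IDR summit had 40.2%, 31.9% and 29.2%. For gaps under 200 bp this window reaches past both TSSs, so it does not hold only the DNA between them. The part of base composition in the share bound was not tested.

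**Figure D1:**
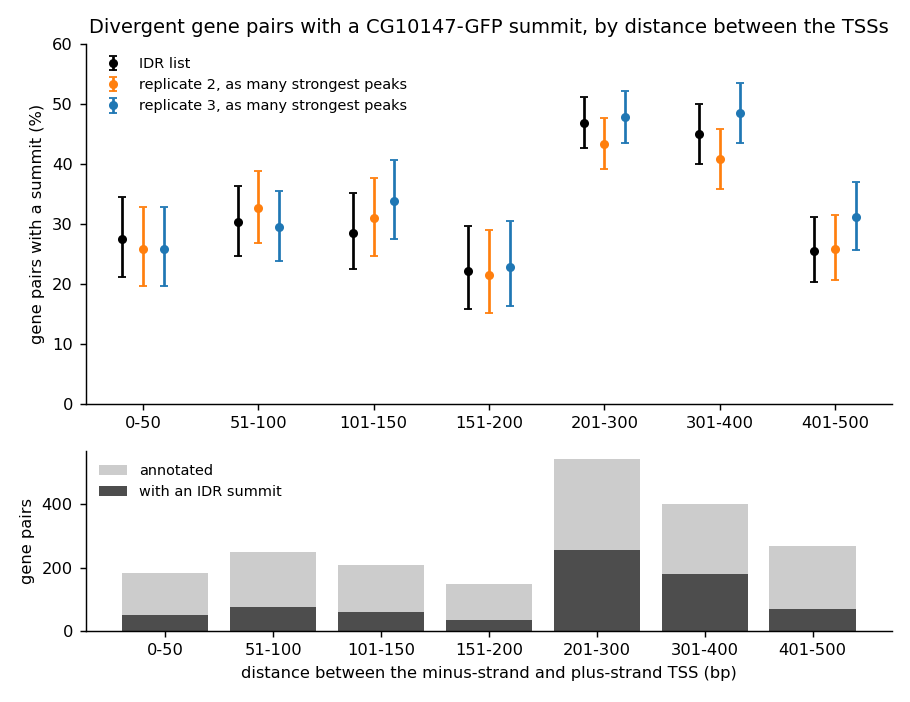
Share of divergent protein-coding pairs with an IDR summit (y axis, %) by the distance between the TSSs (x axis, bp), with points for the bins, bars for 95% exact Clopper-Pearson intervals and separate colours for the IDR list and for as many of the strongest peaks of each replicate. The lower panel gives the number of pairs annotated and bound in each bin. In the IDR list the bins from 200 to 300 bp (46.9%) and from 300 to 400 bp (45.0%) lie above the closer bins, which run from 22.1 to 30.2%.

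The strongest members of each distance class were spread over unlike genes. At 0 to 50 bp, the peak of mRpL23, a mitochondrial ribosome gene, and CG9004 had a pooled signal of 1124 (474.2 and 645.1 in the replicates). Between 150 and 200 bp the strongest was that of mgr, a prefoldin subunit gene, and Irbp, the fly Ku70 of DNA end joining, at 650.7. It was in the replicate 3 list only, at 380.3. Above 400 bp, Pax, the paxillin gene of cell adhesion, and Alp12, an alkaline phosphatase gene, gave 1226, with 415.7 and 813.0. The median pooled signal ran from 203.0 between 150 and 200 bp to 313.8 at 0 to 50 bp, with 292.8 between 200 and 300 bp, so the classes with the most bound pairs were not those with the highest median.

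Most summits lay between the TSSs, near the middle. Of the 710 summits 555 (78.2%, interval 74.9 to 81.2%) were between them, 83 were left of the minus-strand TSS and 72 right of the plus-strand TSS. The median distance to the nearer TSS was 88 bp, with the middle 50% of members from 49 to 124 bp. From the point midway between the TSSs it was 54.5 bp, and 531 summits (74.8%) were within 100 bp of that point. Neither strand was favoured: 349 summits were nearer the minus-strand TSS, 359 nearer the plus-strand TSS and 2 at equal distance. In the replicate lists, the summits matched to members were between the TSSs in 506 of 657 (77.0%) for replicate 2 and 525 of 668 (78.6%) for replicate 3.

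Where the TSSs were close, the summit was mostly outside. It lay between them in 1 of 38 members at 0 to 50 bp, 16 of 64 up to 100 bp, 24 of 51 up to 150 bp and 27 of 36 up to 200 bp. Between 200 and 300 bp it did so in 231 of 255 (90.6%), at a median of 33.5 bp from the middle and 93 bp from the nearer TSS. Between 300 and 400 bp all but 9 of the summits were between, at a median of 68.5 bp from the middle and 109 bp from the nearer TSS. A wider gap leaves more room between the TSSs, so the share between them depends on the gap by construction. For gaps up to 100 bp the outside summits were a median of 57 bp from the nearer TSS. Stt3A, the catalytic subunit gene of oligosaccharyltransferase, and bves had TSSs 26 bp apart and the summit 412 and 386 bp from them, the far end of that range.

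**Figure D2:**
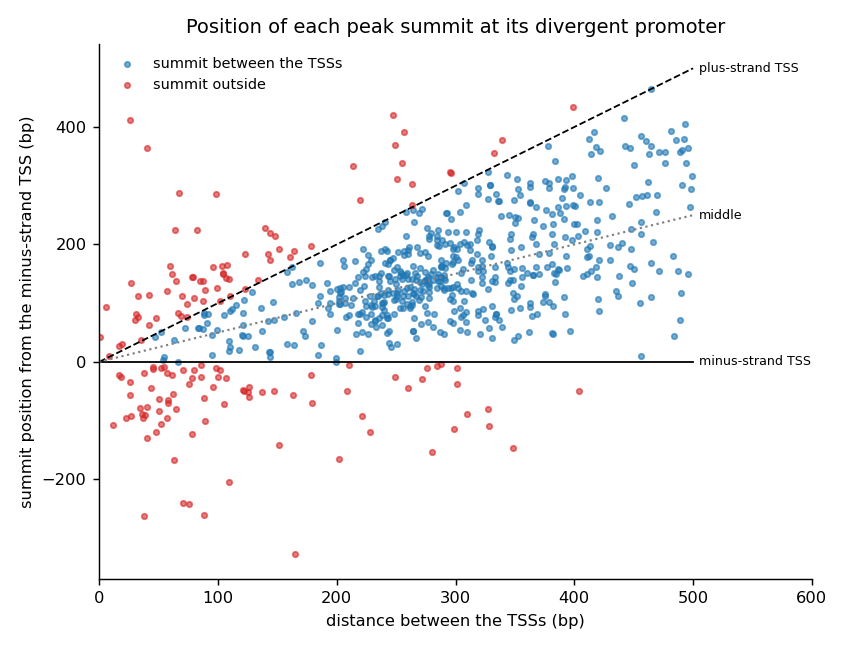
Position of each of the 710 summits relative to the 2 TSSs (bp), by the distance between the TSSs (bp), with lines at the minus-strand TSS (solid), the plus-strand TSS (dashed) and the middle (dotted), blue points for summits between the TSSs and red for those outside. For gaps above 200 bp most points lie between the lines, and for gaps up to 100 bp most lie outside them.

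Of the 46 pairs with 2 member peaks, 37 had summits at most 210 bp apart. The smallest spacing was 199 bp, the median 203 bp and the largest 545 bp. In the whole IDR list the smallest spacing was also 199 bp, so the spacing that the list allows sets the lower end. At CG5611 and Mtl the summits were 199 bp apart with pooled signals of 1752 and 212.8. The first was in both replicates (812.1 and 1018), and the weaker was in the replicate 3 list only, at 133.2. At p38a, a stress-activated kinase gene, and CG6178 the signals were 1176 and 296.7 at a spacing of 204 bp. At Brf, a subunit gene of the RNA polymerase III factor TFIIIB, and sds22, a phosphatase regulator gene, they were 889.2 and 198.8, with both summits in both replicates. In the 5 strongest such pairs 1 summit was the stronger in the pooled reads by a wide margin, 819.7 against 386.3 at CG1275 and Elp5 being the nearest to equal.

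The members' median pooled signal was the highest of the classes compared here, though the classes overlapped widely. Their upper tail was long. The median pooled signal was 263.6, the middle 50% ran from 193.7 to 414.2 and the range from 144.7 to 2536. The median was 227.3 over the other protein-coding promoter peaks and 221.6 over the peaks away from protein-coding promoters. Other promoter peaks that lay upstream of their TSS, 1236 in number, had 250.1. In replicate 2 the medians were 103.8 for members, 99.8 for other promoter peaks and 94.3 for peaks away from them, and the upstream ones among the other promoter peaks stood above the members, at 106.1. In replicate 3 they were 175.4, 145.0 and 138.2, and the upstream ones stood below the members, at 163.0. The middle ranges of the classes overlapped widely in all 3 lists. Members made up 23 of the first 100 IDR peaks (23%), 21.3% of the next 400 and 10.8% of the last 1144. The IDR list was the 4576 strongest of the pooled peaks, so all of these are selected for signal.

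The 2 libraries returned most members, but the IDR list holds peaks reproducible between these same libraries. That selection favours a high share in both lists, so the share is no separate test of reproducibility. A summit within 100 bp was in the replicate 2 list for 657 members (92.5%), in the replicate 3 list for 668 (94.1%), and in both for 616 (86.8%, interval 84.0 to 89.2%). Among other promoter peaks 88.8% and among peaks away from promoters 91.8% were in both. For 450 members (63.4%) both summits were among the 4576 strongest of their list, and 1 member was in neither list. Over the 616 members in both, the signals of the 2 replicates had a Spearman rho of 0.741, and Pearson's r between their log2 values was 0.792. These points share the IDR list's selection on the pooled signal. The rank was higher in replicate 3 for 390 of the 616 (63.3%) and in replicate 2 for 226.

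The matched summits of both lists lay close together, but the match within 100 bp of the pooled summit caps these distances. Within 50 bp, 63.9% of members had a summit in both lists. The replicate 2 summit lay a median of 18 bp from the pooled one and the replicate 3 summit 7 bp. The 2 replicate summits were a median of 29 bp apart, with the middle 50% from 11 to 57 bp. The strongest members missing from replicate 2 were mgr/Irbp (650.7), CG43345 with the mitochondrial aconitase gene mAcon1 (412.3), and the Brahma complex gene Bap60 with CG12096 (393.3). Those missing from replicate 3 were DUBAI, a deubiquitinase gene, with Tmem18 (751.8), CG13901/CG13887 (589.7) and the splicing factor gene U2af50 with PIG-Q (520.3). A strong pooled signal therefore did not ensure a summit in both lists. A summit missing from a list does not show that the library lacked signal there, which was not tested. At mRpS21, a mitochondrial ribosome gene, and Droj2, a DnaJ-like chaperone gene, the signals were 50.5 at rank 7211 and 211.8 at rank 1278. It is 1 of 26 members whose ranks differed more than 5-fold.

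**Figure D3:**
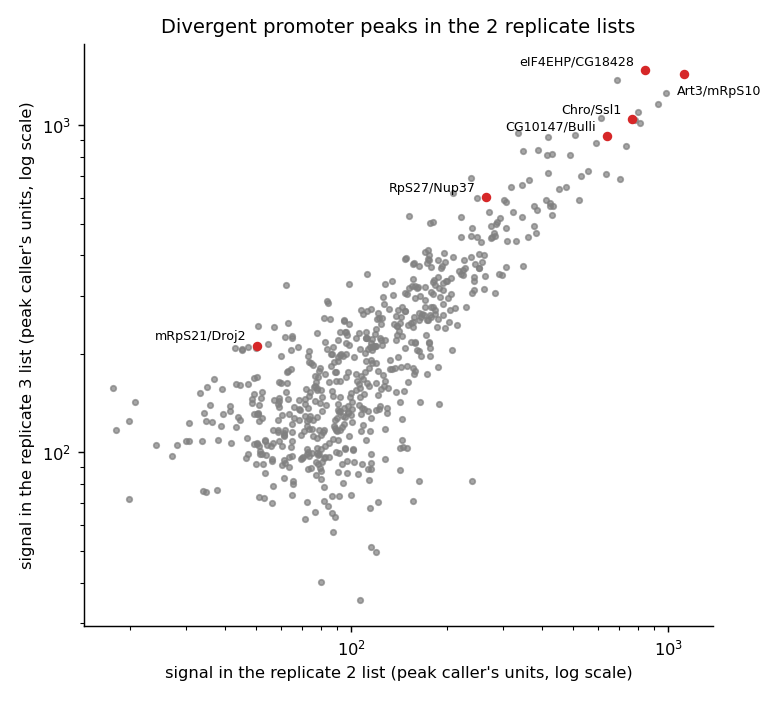
Signal of the 616 members found in both lists, in replicate 2 (x axis) and replicate 3 (y axis), both log scales in the peak caller's units, with named pairs in red. Art3/mRpS10 and eIF4EHP/CG18428 lie at the upper right, and mRpS21/Droj2 lies to the left of the main cloud.

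The DNA under the summits was rich in A and T. Over 200 bp centred on the summit, members had a mean GC content of 33.6% ± 6.81 (SD over 710 peaks), other promoter peaks 36.4% ± 8.32 and peaks away from promoters 33.9% ± 6.76. Windows centred 100 bp upstream of all 19276 protein-coding TSSs had 39.7% ± 9.02. At the middle of divergent pairs, a point that no peak helped to choose, GC content was 32.5% ± 7.67 in bound pairs and 35.2% ± 8.37 in pairs without an IDR summit. The difference held its direction within distance ranges: 39.7% against 40.2% up to 200 bp, 29.8% against 31.9% between 200 and 400 bp and 26.9% against 29.2% above 400 bp. The difference between bound pairs and the others was smaller than 1 SD.

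Around member summits GC content formed a narrow dip within a broad rise. It was 29.5% in the 20 bp to the right of the summit and 50.9% at 580 to 600 bp, where the bodies of the 2 genes begin or continue. Other promoter peaks had 34.1% and 42.4% at the same places. The middles of pairs without a summit had 34.8% and 48.8%, so they had the flanks and a shallower centre. A profile centred on summits and one centred on middles are not aligned the same way.

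**Figure D4:**
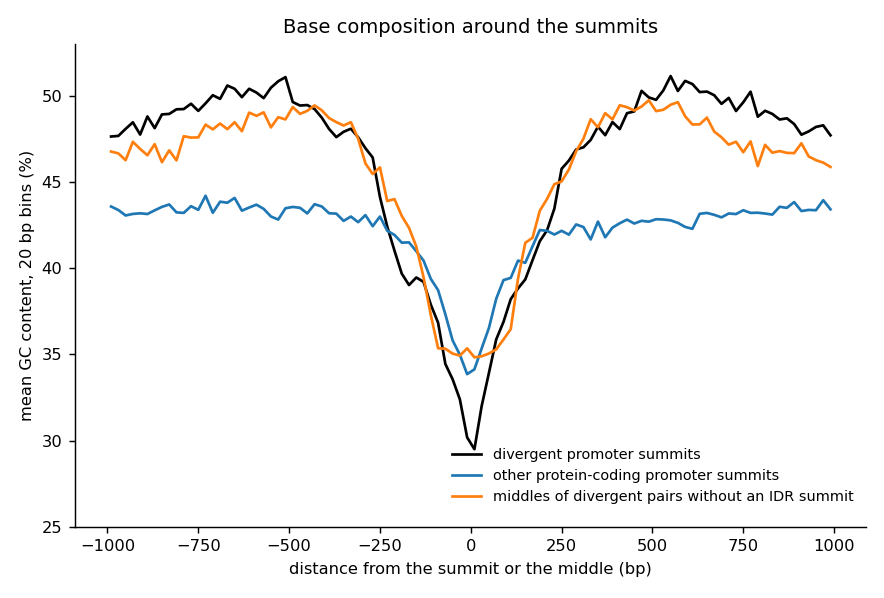
Mean GC content (y axis, %, 20 bp bins) by distance (x axis, bp) from the member summits, from the summits of other protein-coding promoter peaks and from the middles of divergent pairs without an IDR summit. The members' curve has the lowest centre (29.5% in the 20 bp to the right of the summit) and flanks near 50.9%.

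Motif words of known housekeeping promoter factors were no more frequent at bound than at unbound pairs when all distances were pooled. The DRE core TATCGATA stood in 9.74% of the 200 bp windows at the middle of bound pairs and in 11.7% of those at pairs without an IDR summit. CGATA stood in 43.0% and 48.5%, and the motif 1 core GGTCACAC in 4.45% and 8.46%. Up to 200 bp, where these words were most frequent, lay 217 of the 719 bound pairs and 569 of the 1276 others. Above 400 bp, where they were rarest, lay 68 and 199. Within distance ranges the order was not the same throughout. TATCGATA was in 16.1% of bound and 19.9% of other middles up to 200 bp, in 7.60% and 6.89% between 200 and 400 bp, and in 2 of 68 and 1 of 199 above 400 bp. GGTCACAC was in 9.68% and 15.6%, in 2.30% and 3.54%, and in 1 of 68 and 1 of 199. CGATA was the less frequent at bound pairs in all 3 ranges. Over all coding TSSs these words were in 6.15%, 36.5% and 3.31% of windows. In the windows at member summits they were in 11.8%, 47.3% and 5.77%, against 5.89%, 33.6% and 3.70% at other promoter summits and 0.441%, 20.7% and 0.396% at summits away from promoters. Each word was searched on both strands, and TATCGATA windows also count for CGATA.

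Words of A and T alone were more frequent at bound pairs when all distances were pooled, but not in every distance range. AAAATAT stood in 35.5% of the middles of bound pairs, 30.3% of the others and 20.6% of windows at all coding TSSs. Between 200 and 400 bp the shares were 41.9% and 33.5%, up to 200 bp both were 22.1%, and above 400 bp bound middles had fewer, 36.8% against 45.2%. TATAAA stood in 44.1% of bound and 36.8% of unbound middles, TTTAAAA in 29.9% and 26.8%, and TAAAATA in 27.4% and 23.7%. The order turned for TATAAA up to 200 bp (24.0% bound, 28.6% other), for TTTAAAA between 200 and 400 bp (33.4% and 35.2%) and for TAAAATA up to 200 bp (15.7% and 16.5%). These are also words that a sequence with less G and C holds more often, and their part beside base composition was not tested. The motif words were chosen with earlier results of these data known. The higher pooled share of the AT-rich words at bound pairs is therefore no independent evidence. GAGAGAG, the word of GAGA factor, was rare at member summits, in 0.986% of windows against 6.17% at all coding TSSs. It was in 1.25% of bound and 2.98% of unbound middles, and in 4.20% of windows at other promoter summits and 2.69% away from promoters.

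Stronger members had fewer DRE and motif 1 words and more A and T. Divided by pooled signal into 4 sets of 177 or 178 members, TATCGATA was in 6.74% of the strongest set and 14.7% of the weakest, and GGTCACAC in 1.12% and 10.7%. CGATA was in 34.3% and 55.4%. AAAATAT went from 39.9% to 28.8%, TATAAA from 52.8% to 37.3%, and mean GC content from 31.4% to 35.1%. The median gap did not move with it, at 268.5, 269.5, 268 and 271 bp.

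For these words the order of the strongest and weakest sets was the same when each replicate's own signal divided the members. By replicate 2, TATCGATA was in 6.06% of the strongest and 15.2% of the weakest set, GGTCACAC in 0.606% and 11.6%, and AAAATAT in 38.8% and 29.3%. By replicate 3 the shares were 5.39% and 14.4%, 2.40% and 10.2%, and 38.3% and 26.3%. The sets between did not always fall in order, with TATCGATA at 16.5% in the third set by replicate 2. The median distance from the summit was 61.5 bp for TATCGATA and 64 bp for GGTCACAC, and 36 bp for AAAATAT and 37.5 bp for TATAAA. Within 50 bp of the summit lay 30 of 84 windows' TATCGATA (35.7%) and 64.4% of windows' AAAATAT. Each window gave 1 distance, however many matches it held. A word with several matches per window may therefore appear nearer, so a difference in place is not shown.

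**Figure D5:**
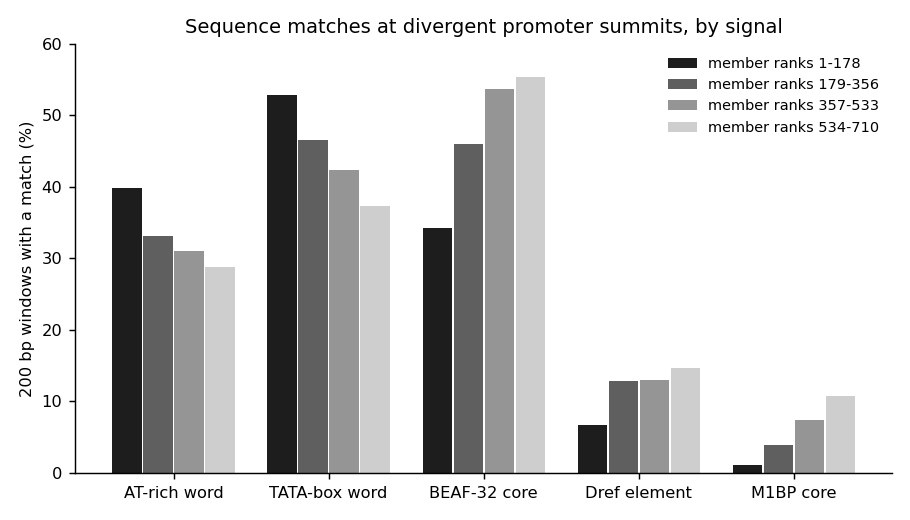
Share of 200 bp summit windows (y axis, %) that hold each word, for the 710 members in 4 sets by pooled signal, drawn from the strongest (darkest bar) to the weakest. From left to right, the AT-rich word is AAAATAT, the word of the TATA box is TATAAA, the core that BEAF-32 binds is CGATA, the Dref element is TATCGATA and the M1BP core is GGTCACAC. TATCGATA and GGTCACAC are lowest in the strongest set (6.74% and 1.12%), where AAAATAT is highest (39.9%).

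Genes of the cytoplasmic ribosome were bound at a high share, inside divergent pairs and outside them. Of 93 listed genes 37 lie in divergent pairs and 26 of these had a member peak (70.3%), beside the 35.9% of all genes in pairs. Of the 56 outside pairs, 36 had a promoter peak (64.3%), beside 13.6% of all genes outside pairs. Among the strongest were RpS27 with the nuclear pore gene Nup37 (pooled 850.9, replicates 266.1 and 602.9) and RpL34b with CG8132 (774.0). RpL13 shares its promoter with Dref itself, where the signal was 417.7, with 147.4 and 306.1 in the replicates. RpL28 with the initiation factor gene eIF1 had 2 member summits: the stronger, at 287.3, was in the replicate 2 list only, and the other, at 263.0, was in both lists, at rank 7310 in replicate 2 and 1323 in replicate 3.

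Genes of the mitochondrial ribosome and of oxidative phosphorylation had another pattern. Of 54 mitochondrial ribosome genes in divergent pairs 25 were bound (46.3%), while 2 of the 22 outside pairs had a promoter peak (9.09%). Of 39 oxidative phosphorylation genes in pairs 17 were bound (43.6%), and of 47 outside pairs 7 were (14.9%). Both lists thus stood nearer the background of their class than the cytoplasmic ribosome did, in pairs and outside. Besides mRpS10, mRpS23 and mRpL23, the strongest was mRpL24 with betaggt-I, a protein prenyltransferase subunit gene, at 935.3. ND-MWFE, a complex I subunit gene, with TppII, a peptidase gene, reached 624.4, and COX5A, of complex IV, with glo reached 331.5.

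Other housekeeping lists had shares from 22.7 to 48% of their genes in pairs. For the proteasome 10 of 21 were bound (47.6%), with Rpn5 at 386.6, and for autophagy and the vacuolar ATPase 12 of 25 (48%), with Atg17 at 564.5. For RNA polymerase, TFIID and Mediator 22 of 49 were bound (44.9%), with the RNA polymerase III gene Polr3E at 736.7, MED27 at 713.0 and Taf2 at 700.3. For vesicle traffic 22 of 54 were bound (40.7%), with Vps33B at 773.4. For translation factors it was 9 of 21 (42.9%), for aminoacyl-tRNA synthetases 8 of 20 (40%), with ThrRS at 568.7 and SerRS at 564.1. For the spliceosome it was 10 of 27 (37.0%) and for DNA repair 8 of 22 (36.4%), with mus312, a nuclease scaffold gene, at 605.9. For replication and the cell cycle it was 11 of 31 (35.5%), with Cdc16 of the anaphase-promoting complex, beside orb, at 697.9. Chaperones had 4 of 15 (26.7%), with Hsc70-5 at 663.2, and the nuclear pore list 5 of 22 (22.7%). From the 4576 strongest peaks of replicate 2 alone the spliceosome count was 6 and the nuclear pore count 8, and from members in both replicate lists the chaperone count was 2. Most of these shares lie near the 35.9% of all genes in pairs, on few genes each.

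Genes of architectural and insulator proteins were bound in 5 of 9 cases in pairs, with an interval of 21.2 to 86.3% that includes the 35.9% of all genes in pairs. After Chro the strongest was Cp190, a cofactor of insulator proteins, with CG4338, at a pooled signal of 1241. M1BP, which binds motif 1, with CG8202 gave 540.0, and Dref gave 417.7. The glycolysis list had 4 of 6, with an interval of 22.3 to 95.7% that includes that share too, and all were weak, the highest being Pgk at 219.9, which was not in the replicate 2 list. Of the listed C2H2 zinc finger genes 6 lie in pairs and 5 were bound, but that list was partly made from earlier results of these data and its share is no evidence. Besides CG10147, CG1602 with PIG-G reached 1184 and CG1792 with Mnat9 reached 956.0. None of the 32 segmentation and Hox genes or the 24 neural genes lies in a divergent pair, and 2 and 3 of them had a promoter peak (6.25% and 12.5%), beside 13.6% of all genes outside pairs.

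In 31 pairs both genes were in the lists, and 15 of these were bound (48.4%). Pairs with 1 listed gene were bound in 180 of 413 cases (43.6%) and pairs with none in 524 of 1551 (33.8%). These counts pool all 19 lists. They include the C2H2 zinc finger list, partly made from earlier results of these data, so the order of these shares is no evidence. The cytoplasmic ribosome genes, bound at 70.3% in pairs, are in them too. Bound pairs with both genes listed include Cdk1, the mitotic kinase gene, with mRpS7 (289.0) and Atg7 with the exocyst gene Sec6 (368.7). Another is mRpL39 with the proteasome gene Prosbeta2 (338.7, replicate 3 list only). Of 5 pairs with both genes in the same list 1 was bound, the TFIID genes Taf10b and Taf10, at 161.9. The heat shock genes Hsp67Bc and Hsp22 and the insulator cofactor genes Ibf2 and Ibf1 were among those without an IDR summit.

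The widest gaps inside were 499 bp at dgt5/CG8545 (pooled signal 176.9), 498 bp at Pax/Alp12 (1226) and 497 bp at SH3PX1/vsg (364.1). Just outside were CG9853/CG14647 at 501 bp (168.3), Cyp9f2/CG5167 at 504 bp (177.4) and CG5989/CG6282 at 508 bp (154.4). For the distance to the farther TSS, the last inside were tank/CG12194 at 494 bp (853.9) and the glycolysis pair Pgk/Bacc at 493 bp (219.9). The first outside were Mad/gkt at 502 bp (170.4), CRAT/CG42564 at 511 bp (264.8) and Rok/RpS19a at 516 bp (281.6). CRAT/CG42564 is a member pair through another summit, at 184.6, and only the summit named here falls outside.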

How the data were processed

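The deposited files were 4 peak lists on dm6 for 2 libraries of CG10147-GFP embryos: 1 for each replicate, 1 for the pooled reads and the IDR list. The authors deposited for each peak a signal value, a −log10 q-value, which is a single value of 4.13 throughout the IDR list, and a summit. The aligner, the peak caller and the definition of the signal are not given in the sources used here, so signals are compared within a list, and between lists only by rank or side by side. The library depth is unknown.

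From these, summits were placed against the TSSs of protein-coding genes in Ensembl release 115 (FlyBase 6.54), where 13966 of 13968 genes had the same start and end in RefSeq. For members with several TSS pairs, the pair with the smallest summed distance to the summit was used. For the shares of pairs bound, the smallest distance between TSSs of the 2 genes was used. Replicate summits were matched within 100 bp. GC content and 12 motif words were read in 200 bp windows of the RefSeq genome. Python 3.11.15, numpy 2.4.6, scipy 1.17.1 and matplotlib 3.10.9 were used, and the membership rule was tested on simulated data. No p-value was computed, since there is 1 group.

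Named peaks are the 20 strongest, CG10147's own promoter, up to 3 strongest per gene list, pairs with both genes listed, the strongest with 2 summits or per gap class, those missing from a replicate and those at the limits. A few others, COX5A, RpL13 and Stt3A among them, were named after their values were seen. A peak that this rule names among the ribosome genes is not reported here. Members, 19 gene lists (9 symbols unmatched) and motifs were chosen with earlier results of these data known.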

Additional observations from a re-analysis of the deposited data

How the results depend on the processing

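With 1 group of 2 libraries and no test, the values describe these libraries. No paired analysis was possible because there is 1 group. Under the alternatives 26 of the main values kept their size and 16 moved. The number of divergent peaks was 710 in the main analysis, 400 with a TSS limit of 200 bp, 216 with TSSs at most 200 bp apart and 434 in the stronger 50% of the IDR list. The share of pairs bound, 36.0%, was 22.2%, 27.5% and 23.3% under those settings and 32.0% for peaks in both replicate lists. The share of summits between the TSSs, 78.2%, was 31.5% for TSSs at most 200 bp apart and 88.6% with the TSS pair farthest apart. The share in both lists, 86.8%, was 89.4% in the stronger 50%, 63.9% when summits had to match within 50 bp and 94.6% within 200 bp. In a window of 100 bp GC content was 31.5%, TATCGATA 4.08% and AAAATAT 20.7%. From the strongest peaks of 1 replicate at a time, as many as in the IDR list, the divergent peaks numbered 662 to 743, the share of pairs bound was 34.6 to 38.1%, the share between the TSSs 76.1 to 79.8%, GC content 33.0 to 35.1% (35.1% without replicate 3), TATCGATA 11.2 to 11.6% and AAAATAT 30.7 to 35.5%. Of the counts of bound genes per list 54 kept their size and 3 moved. Signal values rank peaks within a list, and weak sites may be missing from a list of fixed length.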
